A study of Mus musculus with 2 samples.

Results

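ETS factors are transcription factors that share a winged helix-turn-helix DNA-binding domain, the ETS domain, whose recognition helix reads a short GGAA core in DNA. The family is split by the rest of the protein. Ehf, Elf3 and Elf5 are largely restricted to epithelia, Etv1, Etv4 and Etv5 form the PEA3 group and are classic outputs of FGF and ERK signalling, Ets1 and Ets2 are direct ERK substrates, Elf1 is widely expressed, and Etv6 acts as a repressor. In the mouse lung, Etv4 and Etv5 respond to FGF at the growing tips of the embryonic epithelium, and Etv5 is needed in the adult to maintain alveolar type 2 cells. The 10 genes described here (Ehf, Elf1, Elf3, Elf5, Ets1, Ets2, Etv1, Etv4, Etv5 and Etv6) were picked by name, as the rows of both expression tables that carry 1 of these symbols. They are 10 of 22072 gene symbols and 10 of the 26 mouse ETS genes in the tables.

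The study profiled RNA of lung epithelial cells sorted from adult mice as lineage-negative, CD326-positive and CD24-intermediate, a gate meant to enrich non-ciliated secretory cells of the airways. All mice carried floxed Mst1 and Mst2 alleles and the tetO-driven Cre transgene (tetOCre/Mst1-flx/flx;Mst2-flx/flx), and all ate doxycycline food (625 mg/kg) for 16 days. The control mice had nothing more. The other mice also had Scgb1a1-rtTA, the doxycycline-dependent activator under the club cell promoter Scgb1a1, so Cre, and with it deletion of Mst1 and Mst2, was to be switched on in secretory cells. Active Cre and the activator therefore differ between the groups together with the deletion, and their effects cannot be told apart. RNA of 4 mice was pooled into 1 library per genotype. No spread between mice exists for any value, no p-value can be given, and a difference between the libraries has no replicate check. Intervals below are 95% intervals for counting error, from approximate read numbers, rescaled to the FPKM ratio.

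The library labelled Mst1/2 CKO is called the CKO-labelled library here. Listed transcripts held about 8770000 reads for control and 8340000 for the CKO-labelled library. The kinase genes themselves were not strongly reduced: Stk4 (Mst1) had an FPKM (sequenced fragments relative to transcript length and library depth) of 5.38 and 4.71, and Stk3 (Mst2) 7.28 and 7.09. Which exons Cre removes is not given in the sources used here, so these values do not check the label. The club cell gene Cyp2f2 was abundant in both libraries (FPKM 4694 and 5305), while Scgb1a1 is listed at 0 in both because its estimate failed. Sftpc, a surfactant gene of alveolar type 2 cells, was higher still (FPKM 7888 and 10270), so transcripts of type 2 cells were abundant among the sorted cells. In pooled bulk RNA, fewer cells of a type and less RNA per cell cannot be told apart.

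The sequences that make these genes a family are shown first, because near-identical stretches decide whether short reads can be told apart between members. Each line gives 48 coding bases (16 codons) of the recognition helix, 5′ to 3′, from the GENCODE M21 transcript (GRCm38) paired with the member's RefSeq entry. Capitals mark the 16 bases that are equal in all 10 members.
Ehf: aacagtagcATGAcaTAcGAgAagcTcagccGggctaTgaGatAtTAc
Elf3: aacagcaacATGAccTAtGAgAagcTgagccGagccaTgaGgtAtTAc
Elf5: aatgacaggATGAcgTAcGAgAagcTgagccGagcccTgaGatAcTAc
Elf1: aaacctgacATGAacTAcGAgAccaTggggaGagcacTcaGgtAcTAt
Etv1: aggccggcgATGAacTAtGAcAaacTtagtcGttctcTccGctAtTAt
Etv4: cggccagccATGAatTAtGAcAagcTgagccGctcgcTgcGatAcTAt
Etv5: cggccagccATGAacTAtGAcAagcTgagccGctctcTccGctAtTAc
Ets1: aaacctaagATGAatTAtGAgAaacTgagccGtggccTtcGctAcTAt
Ets2: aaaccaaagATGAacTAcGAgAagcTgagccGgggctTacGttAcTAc
Etv6: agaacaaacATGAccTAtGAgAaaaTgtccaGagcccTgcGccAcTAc
The helix of Etv1, Etv4 and Etv5 is the same in all 16 residues, and so is that of Ets1 and Ets2, although the codons differ. Over up to 88 aligned residues around the helix, Etv1 and Etv5 were 94.3% identical, Etv4 was 92.1% identical to each of them, Ets1 and Ets2 were 85.2% identical, and Ehf and Elf3 76.1%. The least alike of the 45 pairs, Elf5 and Ets2, reached 31.8%. At the level of bases the members were easier to separate. The longest exact run shared by transcripts of any pair was 23 bases, shorter than a read of about 47.1 bases, so no error-free read of that size fits 2 members.

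Etv5 was the most abundant ETS gene of the 10 in both libraries. Its FPKM, 45.9 for control and 65.2 for the CKO-labelled library, made up 40.3% and 52.7% of the summed FPKM of the 10 members. The control order after Etv5 was Ehf (16.7), Elf5 (15.1), Elf1 (10.01), Elf3 (9.42), Ets2 (9.36), Etv1 (3.42), Ets1 (2.04), Etv6 (1.76) and Etv4 (0.143). In the CKO-labelled library it was Ehf (13.7), Ets2 (11.6), Elf1 (9.69), Elf5 (8.86), Elf3 (8.51), Ets1 (3.11), Etv6 (2.03), Etv1 (0.952) and Etv4 (0.0830). Elf5 thus stood beside Ehf in the control library and among Elf1, Elf3 and Ets2 in the other, while Etv1 moved below Ets1 and Etv6. Without replicates, neighbours in these orders cannot be separated by a spread. The summed FPKM of the members was 114 and 124, and they carried 76.6% and 77.9% of the summed FPKM of all 26 ETS genes.

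**Figure D1:**
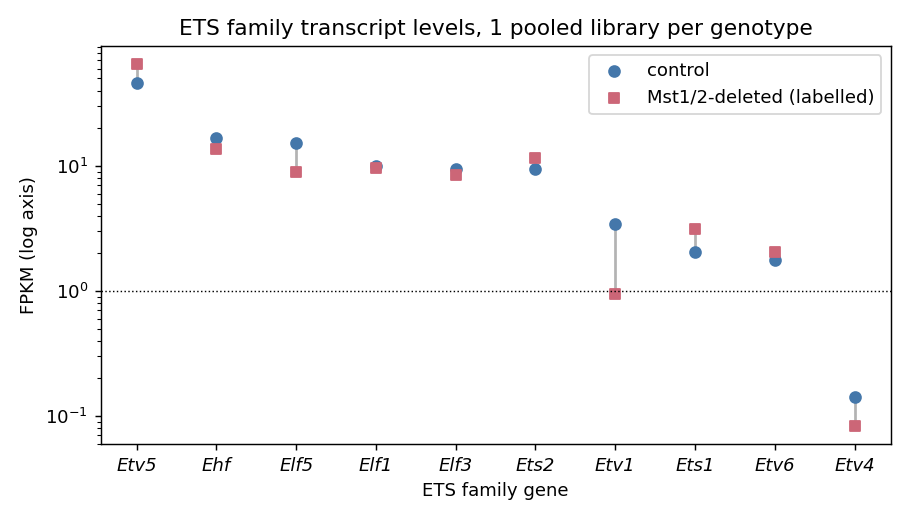
FPKM (log axis) of the 10 ETS genes for control (circles) and the CKO-labelled library (squares), ordered by the control level; the dotted line marks FPKM of 1. Etv5 lies highest in both libraries (45.9 and 65.2), Etv4 lies far below 1 in both, and Etv1 shows the widest gap (3.42 and 0.952).

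Across the 10 members, 2 were at least 1.5-fold lower in the CKO-labelled library on the log2(FPKM + 1) scale (Elf5 and Etv1), 0 were at least 1.5-fold higher, 7 lay within 1.5-fold and Etv4 was below FPKM of 1 in both libraries. Among the 9945 genes that reached FPKM 1 in either library, 2.59% were as much lower and 3.02% as much higher. Among the 7241 genes with transcripts of at least 300 bases and mean FPKM in the range of the 9 measured members, the shares were 1.75% lower and 2.6% higher. The members' median log2 difference was -0.04, against 0.07 over all genes tested. The count of 2 is a description with no test. With a pseudocount of 5 in place of 1 it was 0, beside 0.684% of all genes lower. With a minimum of FPKM 5 it was 1, beside 2.45%.

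Etv1 showed the widest difference. Its FPKM was 3.42 for control, from about 382 reads, and 0.952 for the CKO-labelled library, from about 91 reads. The FPKM ratio was 0.279, that is 3.59-fold lower (interval 2.85 to 4.56), and the log2 difference -1.18. Etv1 was also 1 of the 0.975% of genes at least 2-fold lower on the log2(FPKM + 1) scale. It passed the minimum of FPKM 1 through the control library alone. Etv1 (chr12:39506845-39594802, mm9), also called ER81, is known from the wiring of sensory and motor neurons and from gastrointestinal pacemaker cells.

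Etv5, of the same PEA3 group, went the opposite way, and Etv4 was too scarce to compare. Etv5 (chr16:22381386-22439643) had FPKM of 45.9 and 65.2, from about 4752 and 6039 reads, a ratio of 1.42 (1.37 to 1.48) and a log2 difference of 0.50. It was higher than in control, under the 1.5-fold line, and 4.64% of all genes tested had a larger difference in that direction. Etv4 (chr11:101631056-101646624), the partner of Etv5 in embryonic lung, was nearly absent, with FPKM of 0.143 and 0.0830 from about 9 and 5 reads. A ratio from so few reads spans 0.164 to 2.06, so no difference was detectable for Etv4 at this depth. Within the PEA3 group, then, the most abundant gene was higher and a scarce one lower in the same library.

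Most alveolar markers lay higher in the CKO-labelled library, as Etv5 did. All 12 genes of a type 2 marker list passed the minimum, 11 of them lay above 0, and 1, Lpcat1, was at least 1.5-fold higher. Their median log2 difference was 0.30, smaller than that of Etv5, and their summed FPKM was 11741.5 and 14597.5. Among the 9945 genes tested, 6286 lay above 0, 3.02% were at least 1.5-fold higher and the median was 0.07. Slc34a2, a phosphate carrier of type 2 cells, had FPKM of 573 and 780 (ratio 1.36), and Napsa, an aspartic protease that processes surfactant protein B, 49.4 and 71.8 (ratio 1.46). Of 12 type 1 markers, 9 were higher by 1.5-fold or more and 0 lower, with a summed FPKM of 194 and 432. Of these 9, 1 passed the minimum through the CKO-labelled library alone. The part of these cell types in the level of Etv5 was not tested.

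The epithelial ETS genes differed among themselves. Elf5 (chr2:103252255-103291145), known for its part in secretory differentiation of the mammary gland, had FPKM of 15.1 and 8.86, from about 906 and 475 reads. That is 1.70-fold lower in the CKO-labelled library (1.53 to 1.91), with a log2 difference of -0.71, and 1.78% of genes tested had a lower one. Ehf (chr2:103103590-103143353), its neighbour 109 kb away on the same chromosome, had FPKM of 16.7 and 13.7, from about 1987 and 1452 reads. Its ratio of 0.817 (0.763 to 0.875) was in the same direction but smaller, with a log2 difference of -0.27. Elf3 (chr1:137150151-137155049), which responds to inflammatory signals in many epithelia, had FPKM of 9.42 and 8.51 and a ratio of 0.904 (0.791 to 1.03), an interval that holds 1. Elf1 (chr14:79881001-79982283), a relative best known from blood cells, had FPKM of 10.01 and 9.69 and a ratio of 0.969 (0.888 to 1.06).

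Mucous markers and part of the club cell markers were lower in the library in which Elf5 was lower. Of 9 club cell markers with FPKM of at least 1, 2 were lower by 1.5-fold or more, 0 were higher and 7 lay between, and the median log2 difference was -0.36. Among all genes tested, 2.59% were as much lower and 3.02% as much higher, with a median of 0.07. Scgb3a1, a secretoglobin, had FPKM of 477 and 121, whereas Cbr2, a carbonyl reductase, had 5224 and 3803. Cyp2f2 (4694 and 5305) and Hp (400.3 and 410.5) were higher. Of 9 mucous markers, 5 passed the minimum and were called lower, but 2 of them (Agr2 and Tff2) passed through control alone, where they are high. The summed FPKM of that list of 9 was 74.6 and 26.0, of which Pigr, an antibody transporter gene, gave 42.9 and 15.8. Tff2, a trefoil peptide of mucous cells, had FPKM of 1.80 in control and is listed at 0 in the other library. Of 6 basal cell markers 3 were lower, among them Krt5 at 10.7 and 2.998, and 5 lay below 0. The remaining 1, Icam1, was higher, at 27.4 and 48.0. Icam1 made up most of the sum of the list, 52.6 and 57.4. The ciliated markers summed to 33.5 and 54.8. Of the 8 that passed the minimum, 3 were higher by 1.5-fold or more. Through the CKO-labelled library alone 5 passed, among them 2 of these 3. The remaining 3 of the 8 (Foxj1, Tppp3 and Rsph1) lay higher there too, but only Tppp3 by 1.5-fold or more. The interval of the Rsph1 ratio held 1 (0.979 to 1.92). Whether the share of any of these cells sets the level of Elf5, Ehf or Etv1 was not tested.

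Ets1 and Ets2 were both higher in the CKO-labelled library. Ets1 (chr9:32503627-32565405), a factor of lymphocytes and blood vessels as well as of epithelia, had FPKM of 2.04 and 3.11, from about 268 and 369 reads, a ratio of 1.52 (1.29 to 1.78). On the log2(FPKM + 1) scale this was 0.43, under the 1.5-fold line, since the pseudocount shrinks the difference of a low gene. Ets2 (chr16:95924014-95942656) had FPKM of 9.36 and 11.6, from about 902 and 1000 reads, a ratio of 1.24 (1.13 to 1.36). Etv6 (chr6:133985725-134220165) had FPKM of 1.76 and 2.03 and a ratio of 1.15, with an interval from 0.969 to 1.37. Counting intervals lay above 1 for 3 members (Ets1, Ets2 and Etv5), below 1 for 3 (Ehf, Elf5 and Etv1) and held 1 for the other 4.

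Leukocytes and endothelium also express Ets1. Of 11 leukocyte markers, 7 passed the minimum, of which 4 were lower by 1.5-fold or more and 0 higher, and the list summed to FPKM of 19.1 and 10.2. Of these 4, 3 passed through control alone. Among all genes tested, 2.59% were as much lower and 3.02% as much higher. Csf1r and Cd79a, which passed through the CKO-labelled library alone, lay above 0, at 0.984 and 1.80 and at 0.527 and 1.06. The 9 endothelial markers summed to 11.4 and 7.19, and Kdr, at 9.05 and 5.11, was the only 1 with FPKM of at least 1. Without Kdr the other 8 summed to 2.33 and 2.09, with 4 higher and 4 lower. The 9 mesenchymal markers summed to 19.9 and 8.85. Of 4 that passed the minimum, 2 were lower by 1.5-fold or more and 0 higher. The 2 were Dcn (11.9 and 3.79) and Mfap4 (3.25 and 0.973), and Mfap4 passed through control alone. Col1a1 (0.824 and 0.828) and Col1a2 (1.32 and 1.20) were nearly level, with intervals that held 1. The part of these cells in the level of Ets1 was not tested.

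**Figure D2:**
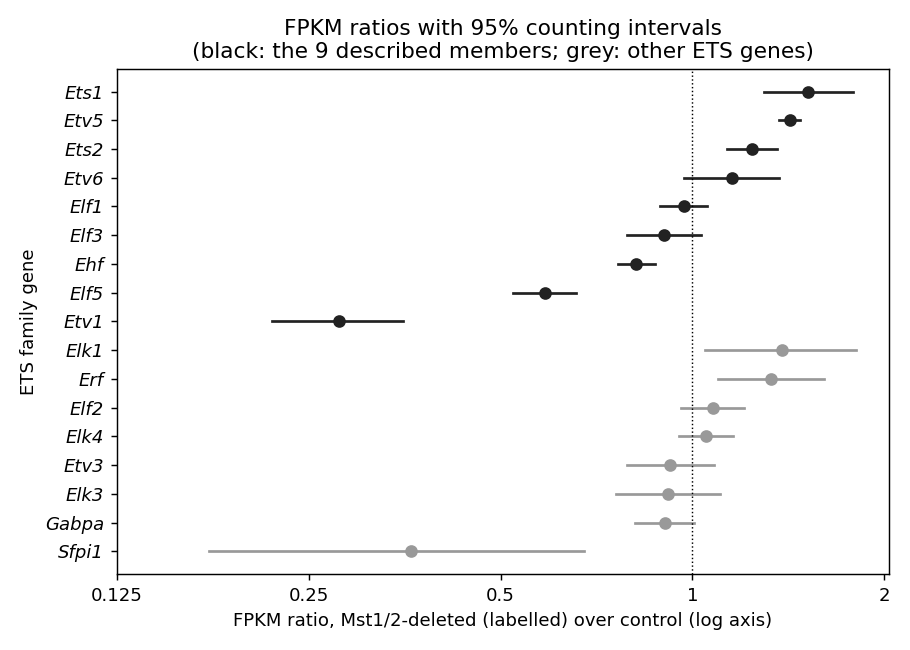
FPKM ratio of the CKO-labelled library over control (log axis) for the 9 members that reached FPKM 1 in either library (black) and for 8 other ETS genes (grey), with 95% counting intervals as bars. The dotted line is a ratio of 1. Etv1 (0.279) and Elf5 (0.587) lie lowest among the members and Ets1 (1.52) and Etv5 (1.42) highest.

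**Figure D3:**
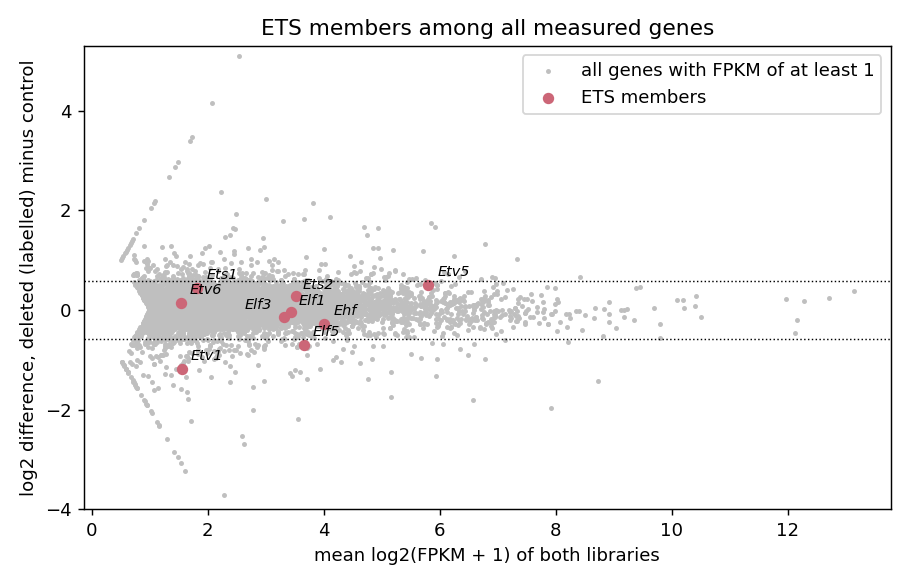
Log2 difference (CKO-labelled minus control, FPKM + 1) against the mean level for 9945 genes (grey) and 9 ETS members (coloured); dotted lines mark 1.5-fold. Etv1 and Elf5 lie below the lower line, and the other 7 lie between the lines.

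The tables list 2 transcript entries for 4 members (Elf3, Elf5, Ets1 and Etv1), which gives a view below the level of the gene. These splits are Cufflinks estimates from reads that mostly fit both entries, and the tables used here hold no interval for them. In Elf3, the entry NM_001163131 had FPKM of 5.45 and 1.96, control first, and NM_007921 had 3.97 and 6.55. The share of the first entry was thus 57.8% and 23.1%, while the gene as a whole had a ratio of 0.904. Both entries have the same ends, and their lengths of 2000 and 1940 bases differ by 60. In GENCODE M21 the difference is a 60-base stretch of exon 3 of the longer transcript (chr1:135257227-135257286, GRCm38, minus strand), all of it coding, printed here because it alone tells the entries of the deposited tables apart:
Elf3 exon 3 stretch: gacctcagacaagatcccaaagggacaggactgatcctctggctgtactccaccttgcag
The transcript with this stretch encodes 391 residues. At the coverage of the gene, about 15.3 reads for control and 12.4 for the CKO-labelled library would fall on these 60 bases if every transcript held them, so the split rests on few reads.

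Ets1 was split in the opposite sense, with a larger part of the full-length entry in the CKO-labelled library. NM_011808 had FPKM of 0.352 and 1.32, or 17.2% and 42.6% of the gene, and NM_001038642 had 1.69 and 1.78. Nearly all of the difference in the gene total thus lay in the longer entry. The entries of 5060 and 4799 bases differ by 261, the length of exon 6 of the GENCODE transcript (chr9:32738099-32738359, GRCm38, plus strand), which is coding throughout. Ets1 without this exon is a known isoform that lacks part of the region which holds the DNA-binding domain in an inhibited state. The exon is shown because it separates the 2 proteins of 440 and 353 residues:
Ets1 exon 6: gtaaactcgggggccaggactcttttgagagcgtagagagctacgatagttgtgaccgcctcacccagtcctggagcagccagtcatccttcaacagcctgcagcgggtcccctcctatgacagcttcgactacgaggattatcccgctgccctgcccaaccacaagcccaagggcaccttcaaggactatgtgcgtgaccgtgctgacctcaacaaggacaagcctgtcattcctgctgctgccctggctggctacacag
About 14.4 reads for control and 19.6 for the CKO-labelled library would fall on the exon at full inclusion, so the shift of the shares is a description with low depth behind it.

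Etv1 and Elf5, the 2 lower members, each have entries that begin at different starts. For Elf5, nearly all signal went to NM_010125, the entry with the downstream start, at FPKM of 15.1 and 8.86, and the entry with the upstream start was at most 0.000334. The lower level of Elf5 therefore concerned transcripts assigned to 1 start. For Etv1, NM_007960, which begins at the upstream start, had FPKM of 3.42 and 0.437. NM_001163154, from the downstream start, had 3.28e-05 and 0.515, the latter 54.1% of the gene. These 2 entries had about 43.7 and 47.3 reads in the CKO-labelled library. The 4 exons particular to the upstream entry in GENCODE add up to few expected reads there (7.84, 3.04, 2.03 and 1.11 at the coverage of the gene), so the split within that library is uncertain.

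**Figure D4:**
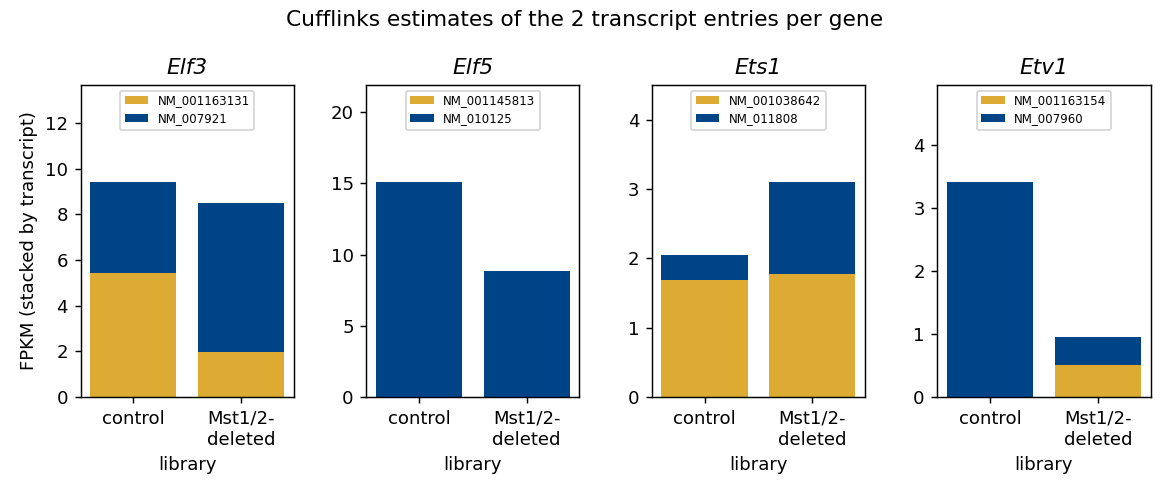
FPKM of the 2 transcript entries (stacked colours) of Elf3, Elf5, Ets1 and Etv1 for control and the CKO-labelled library; each panel has its own axis from 0. Elf3 holds less of NM_001163131 (5.45 and 1.96), Ets1 more of NM_011808 (0.352 and 1.32), and Elf5 is carried by 1 entry in both.

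The windows around both starts of Etv1 and of Elf5 are given because the entries of these genes are told apart by them. They come from RefSeq (GRCm38.p6) and run from 250 bases before to 50 after the start, on the plus strand. Capitals mark GGAA and its reverse complement TTCC, the ETS core, wherever it occurs, overlaps included.
Etv1 upstream start (chr12:38779832-38780131): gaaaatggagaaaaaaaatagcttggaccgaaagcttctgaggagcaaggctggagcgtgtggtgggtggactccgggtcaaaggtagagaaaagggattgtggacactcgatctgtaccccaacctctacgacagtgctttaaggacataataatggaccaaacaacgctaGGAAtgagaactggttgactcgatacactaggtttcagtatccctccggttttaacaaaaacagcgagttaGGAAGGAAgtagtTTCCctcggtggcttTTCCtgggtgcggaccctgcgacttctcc
Etv1 downstream start (chr12:38783461-38783760): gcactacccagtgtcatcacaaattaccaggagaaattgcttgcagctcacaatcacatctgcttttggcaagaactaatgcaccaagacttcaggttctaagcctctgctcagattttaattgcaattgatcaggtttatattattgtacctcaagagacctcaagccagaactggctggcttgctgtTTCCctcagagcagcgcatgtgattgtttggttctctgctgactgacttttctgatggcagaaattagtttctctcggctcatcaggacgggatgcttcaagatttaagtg
Elf5 upstream start (chr2:103411848-103412147): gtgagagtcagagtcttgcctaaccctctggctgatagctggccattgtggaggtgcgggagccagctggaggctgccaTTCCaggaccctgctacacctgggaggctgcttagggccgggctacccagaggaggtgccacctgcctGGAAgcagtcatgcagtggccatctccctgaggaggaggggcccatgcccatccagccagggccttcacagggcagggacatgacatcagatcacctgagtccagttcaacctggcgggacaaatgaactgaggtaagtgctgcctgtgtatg
Elf5 downstream start (chr2:103423818-103424117): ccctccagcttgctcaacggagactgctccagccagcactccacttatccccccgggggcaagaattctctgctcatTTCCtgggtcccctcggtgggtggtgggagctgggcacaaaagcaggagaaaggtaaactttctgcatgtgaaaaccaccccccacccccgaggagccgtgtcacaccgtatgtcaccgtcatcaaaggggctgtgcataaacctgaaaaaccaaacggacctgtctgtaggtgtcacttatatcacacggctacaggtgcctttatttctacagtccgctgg
The core occurs 5 times at the upstream start of Etv1, once at its downstream start, 2 times at the upstream start of Elf5 and once at its downstream start. It is common, since 96.0% of 32851 promoter windows of this length hold it, with a median of 3 matches, and 28.6% hold at least 5. The longer ETS sequence CCGGAAGT, searched on both strands, is in 3.89% of windows and in 0 of the 11 windows of the 7 members that have one in the table (Elf1, Elf3, Elf5, Ets2, Etv1, Etv5 and Etv6). The distance between the starts of the Elf5 windows, 11970 bases, is the same as between the starts of its entries in mm9. For Etv1 these distances were 3629 and 3453 bases, so the downstream window does not begin exactly where the entry does.

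Of the 16 other ETS genes, 8 reached FPKM 1 in either library. Of these, 1 was lower by 1.5-fold or more and 0 higher on the log2(FPKM + 1) scale, beside 2.59% and 3.02% of all genes tested, and the median log2 difference was -0.01. The lower one was Sfpi1, the gene of the myeloid factor PU.1, at FPKM of 1.13 and 0.409 (ratio 0.362, 0.174 to 0.675, about 41 and 13 reads). It passed the minimum through control alone. Its call was lost with a pseudocount of 5 (-0.18) and with the minimum at FPKM 5. In TPM, with the minimum at TPM 1, 3 of the 16 were lower, beside 8.38% of all genes lower. Another 2 were higher, and no share of all genes higher was computed in TPM. Of the 8, Sfpi1 alone was among the genes called in TPM, and the other called genes had not reached FPKM 1. The ternary complex factors Elk1, Elk3 and Elk4, which bind beside serum response factor, had FPKM of 1.04 and 1.43, 2.23 and 2.04, and 8.82 and 9.27. Erf, a repressor that ERK expels from the nucleus, had 2.14 and 2.84 (ratio 1.33, 1.10 to 1.61), and Etv3, another repressor, 2.61 and 2.41. Elf2, a relative of Elf1, had 8.53 and 9.17, and Gabpa, which drives housekeeping and mitochondrial genes, 5.80 and 5.25. The 8 genes below the minimum included Fli1 (0.452 and 0.177), an endothelial and blood cell factor 155 kb from Ets1, and Spdef (0.642 and 0.306), the factor of mucous cells. Fli1 was thus lower and Ets1 higher in the CKO-labelled library, although Fli1 rests on about 38 and 13 reads. Erg, 172 kb from Ets2, had 0.0711 and 0.223 from about 4 and 12 reads.

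The genes that relay signals to ETS factors had no call in either direction, a count near the share of all genes called (2.59% lower and 3.02% higher). Of 15 FGF receptor and ERK cascade genes found in the tables, 14 passed the minimum and 0 were called, again on log2(FPKM + 1), with a median log2 difference of 0.06 beside 0.07 for all genes tested. Fgfr2, the main epithelial FGF receptor of the lung, had FPKM of 46.6 and 54.8 (log2 difference 0.23), and the kinase gene Braf 7.25 and 8.996 (0.28). Feedback inhibitors of ERK signalling, several of which are textbook ETS targets, had 10 of 11 genes past the minimum, 0 called on the same scale and a median of 0.09. With a pseudocount of 0.1, and in TPM, 1 was lower, Dusp5, beside 4.79% and 8.38% of all genes lower. Dusp5, a nuclear ERK phosphatase, had FPKM of 2.39 and 1.48, with a log2 difference of -0.45 and an FPKM ratio of 0.620 (0.407 to 0.906). Spred1, an inhibitor of Ras activation, had 6.20 and 8.43 (0.39), and Spry2 9.88 and 11.2 (0.16).

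Of 14 repressors, partners and turnover factors of ETS proteins, 13 passed the minimum, 0 were called on the log2(FPKM + 1) scale and the median was 0.07. With a pseudocount of 0.1, and in TPM, 1 was lower, Trib2, beside 4.79% and 8.38% of all genes lower. Cic, the repressor that silences Etv1, Etv4 and Etv5 until ERK removes it, had FPKM of 5.47 and 5.85. Rfwd2, the COP1 ubiquitin ligase that marks PEA3 proteins for degradation, had 6.34 and 6.72. The members of the list with the largest differences were Trib2, a COP1 adaptor (1.56 and 0.987, ratio 0.633, 0.489 to 0.812), and the GABP partners Gabpb2 (3.10 and 4.09) and Gabpb1 (4.55 and 5.83).

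Among 14 epithelial genes reported to respond to Elf3, Ehf or Elf5, 1 was lower by 1.5-fold or more, 1 higher and 12 lay between, and the median was -0.12. For all genes tested the shares were 2.59% lower and 3.02% higher, and the median was 0.07. Pigr, the transporter of secreted antibodies across epithelia, was lower, at FPKM of 42.9 and 15.8 (log2 difference -1.39). It is also in the mucous marker list, whose summed FPKM was 74.6 and 26.0 with Pigr included. Pigr thus made up most of that sum in both libraries. Krt7, a keratin of simple epithelia, was higher, at 13.8 and 21.9 (0.63), and Tgfbr2, a TGF-beta receptor that Elf3 is known to activate in human cells, had 8.63 and 13.2 (0.56). Krt7 lay under the 1.5-fold line with a pseudocount of 5 (0.52), with the median difference of all genes set to 0 (0.56) and with the length trend removed (0.58). Cdh1, the E-cadherin gene, had FPKM of 91.7 and 96.5.

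**Figure D5:**
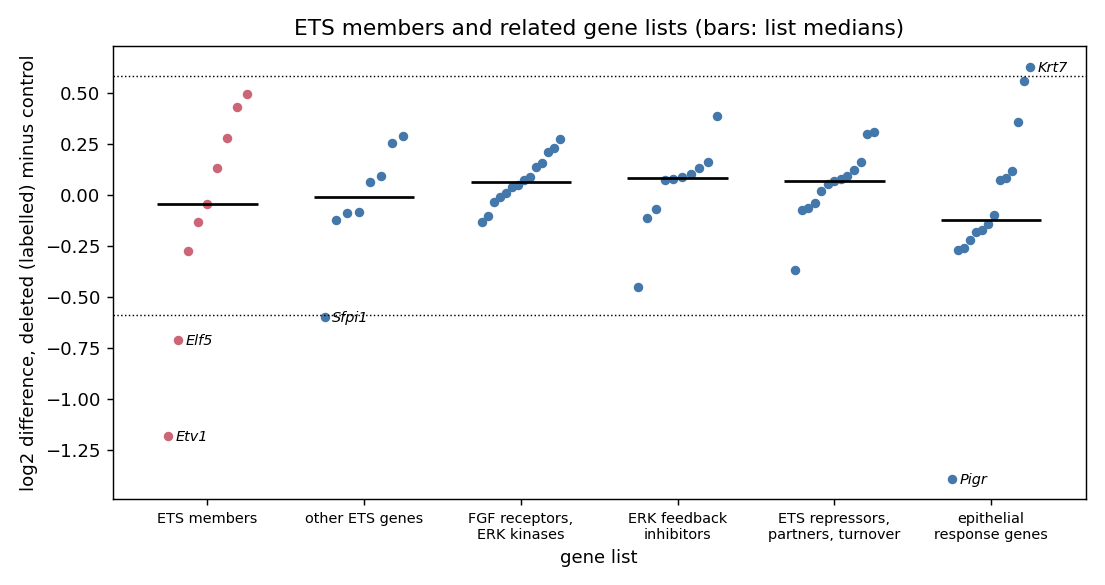
Log2 difference (CKO-labelled minus control, FPKM + 1) of each measured gene in the ETS member list and in 5 related lists; each dot is a gene, black bars are list medians and dotted lines mark 1.5-fold. Etv1, Elf5, Sfpi1 and Pigr lie below the lower line and Krt7 above the upper one.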

How the data were processed

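The authors' tools were TopHat and Cufflinks and their build mm9, per the submitters' processing notes. Versions, read length, strand and annotation release were not given in the sources used here. The 28107 rows of each deposited table give FPKM, a status and a transcript length, per the file headers. Per the file headers, the deposited tables also give coverage, a signal of mean depth. Rows of a symbol were summed, and all 10 genes had status OK. A difference is log2((FPKM + 1) CKO-labelled over (FPKM + 1) control), and genes had to reach FPKM 1 in either library. The pseudocount shrinks differences of low genes.

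Whole reads are not in the tables. Coverage times length, divided by 47.1 bases (the median of 1418 low single-entry values between 25 and 75 bases), gave approximate reads, and Clopper-Pearson intervals (scipy 1.17.1) scaled by the depth ratio of 0.895 cover counting error only. No count test was run. Intervals and differences were tested on simulated data that held counting error alone and 1 entry per gene, as the intervals assume. That run checks the calculation only, since it held neither the rescaling nor a spread between mice. Starts of mm9 loci are raised by 1.

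The genes, lists and settings were chosen with earlier results of these data known. All 10 genes, other ETS genes past the minimum and the 3 largest differences per related list are named, except 1 gene that is not reported here; Cic, Rfwd2, Cdh1, Fli1, Erg, Spdef and single markers were added after their values were seen. The spelling Sfpi1 in the tables was used for Spi1. Alternatives were other pseudocounts, filters, the highest row per gene, median centring, TPM, status OK rows and removal of a length trend. With 1 library per genotype no replicate could be left out.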

Additional observations from a re-analysis of the deposited data

How the results depend on the processing

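The log2 difference of Elf5 ranged from -0.81 to -0.54, that of Etv1 from -1.74 to -0.50 and that of Etv5 from 0.41 to 0.51 over the alternatives run. Elf3 changed side, to 0.23, with only its highest row kept, and Ets1 came to 0.05 there, as their rows split differently. With a pseudocount of 5, the count of members at least 1.5-fold lower went from 2 to 0, beside 0.684% of all genes lower. With the minimum at FPKM of 5 it was 1, since Etv1 leaves, beside 2.45% of all genes. Over the other alternatives it was 2, beside 1.33% to 8.38% of all genes lower, and the count higher was 0 in all. The median of the members lay between -0.14 and 0.05. Other ETS genes counted as lower numbered 0 with a pseudocount of 5 or the minimum at 5. In TPM 3 were lower and 2 higher, of which Sfpi1 alone had also reached FPKM 1. The share of all genes lower was 8.38% in TPM, and no share higher was computed for any alternative. Feedback inhibitors and ETS partners had 1 lower gene each with a pseudocount of 0.1 and in TPM. The shares of all genes lower were 4.79% and 8.38% there. Epithelial response genes had 2 higher with a pseudocount of 0.1, and 0 with a pseudocount of 5, with centring or with the length trend removed. The lower genes there were Dusp5 and Trib2, and the added higher one was Tgfbr2 (0.61). Krt7 fell under the 1.5-fold line where the count was 0 (0.52, 0.56 and 0.58). With reads taken as double in size, an alternative chosen after seeing the data, the intervals of 6 members still excluded 1. Depth limits Etv4, Sfpi1 and the splits between entries of Elf3, Ets1 and Etv1. No paired analysis was possible because there is 1 library per genotype.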
